A study of Anser cygnoides with 6 samples.

Results

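Cytochrome P450 enzymes and the related monooxygenases of goose liver were taken as the gene models whose description names cytochrome P450 or whose Gene Ontology annotation holds the term for oxidoreductases that act on paired donors with incorporation or reduction of molecular oxygen. The rule gave 61 of 21009 gene models. All 61 carried the term, and 22 of them were also named as cytochrome P450 in the description. By their domains, 47 are heme-containing P450 enzymes and the other 14 carry the domain of iron and 2-oxoglutarate dependent hydroxylases, which do not bind heme. Of these, 9 are named for prolyl or lysyl residues and 5 have the domain alone.

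Liver RNA of 6 purebred lion-head geese was sequenced, 1 library per bird, from 3 high-intake-fed and 3 normally fed birds that entered the trial at 120 days of age. Both groups are described as having the same diet, which the normally fed birds ate freely, while the high-intake-fed birds were force-fed in several meals a day with boiled rice included. The feeding ended on day 38 and all birds went without feed on the last night. Each group was kept in its own enclosure, so force-feeding, the rice and housing cannot be told apart. Replicate numbers 1 to 3 name single birds within a group. The trial included female and male geese, and the sources used here do not give the sex of the 6 sequenced birds.

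P450 enzymes split molecular oxygen at a heme iron, putting 1 oxygen atom into a lipophilic substrate with electrons from NADPH. In the liver the families CYP1, CYP2 and CYP3 are best known for drugs and other foreign compounds, CYP4 for fatty acids, CYP26 for retinoic acid, and CYP7 and CYP8 for the conversion of cholesterol into bile acids. CYP7A1 catalyses the rate-limiting step of the classical bile acid pathway, and CYP8B1 adds the 12-hydroxyl group that separates cholic acid from chenodeoxycholic acid.

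Library totals lay between 14154910 and 16993373 counts. Levels are given as CPM, the count as a share of the library total after scaling by trimmed mean of M values (TMM), and per kilobase of the coding length of the model where genes are compared with each other. Fold changes are log2 values of high-intake-fed over normally fed livers from edgeR, and adjusted p values are Benjamini-Hochberg values over all tested models. The models matched to the hepatocyte markers albumin, transferrin, apolipoproteins A1 and B, fibrinogen and hemopexin (6 of 10 listed) summed to between 125600 and 269100 CPM in high-intake-fed livers, against 240800 to 326100 CPM in normally fed livers. Those matched to the erythrocyte markers (2 of 4) summed to between 535.9 and 874 CPM in high-intake-fed livers, against 205.7 to 362.2 CPM in normally fed livers. The endothelial markers (2 of 5) summed to between 87.3 and 110.2 CPM in high-intake-fed livers, against 118.5 to 165.2 CPM in normally fed livers, and the stellate and fibroblast markers (2 of 6) to between 43.83 and 79.46 CPM, against 81.39 to 160.2 CPM. The biliary markers (2 of 5) overlapped between groups, at 6.18 to 20.3 CPM in high-intake-fed livers, against 11.9 to 17.6 CPM in normally fed livers, and the adipocyte marker (1 of 3) had at most 1.21 CPM in any liver. None of the macrophage or lymphocyte markers could be matched to a model. Markers within a sum did not all move alike. ACTA2 and VWF were lower without overlap (log2 fold change -1.01 and -1.09), while DES and PECAM1, of the same sums, overlapped (-0.27 and -0.11). Apolipoprotein A1 was higher without overlap (1.41), transferrin and fibrinogen lower (-1.67 and -1.41), and albumin, apolipoprotein B and hemopexin overlapped. The part of these cell types in the results that follow was not tested.

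Of the 61 members, 43 had enough counts to be tested. Of these 5 fell and 0 rose at an adjusted p under 0.05 (edgeR), in a table where 0.829% of all 12914 tested models fell and 0.643% rose (1.47% in either direction). The 5 were CYP7A1, a CYP8 model, CYP2U1, the prolyl hydroxylase EGLN3 and an alpha subunit of prolyl 4-hydroxylase, so 3 were P450 enzymes and 2 were 2-oxoglutarate dependent hydroxylases. At an unadjusted p under 0.05, 12 tested members were lower and 2 higher, beside 9.71% lower and 8.67% higher among all tested models. With a fold change over 2 as well, 9 members were lower and 1 was higher, beside 5.33% lower and 4.26% higher among all tested models. DESeq2, run on all 61 members, gave 8 lower and 1 higher at an adjusted p under 0.05. The exact test of edgeR, run on the 43, gave 7 lower and 1 higher. Over all models DESeq2 gave 2.63% lower and 2.41% higher of 18727, and the exact test 3.38% lower and 2.89% higher of 12914. The 18727 are all models with a DESeq2 p value, and some of them had no adjusted p. Among models with an adjusted p the DESeq2 shares would be higher. In 14 of the 43 members all high-intake-fed livers lay below all normally fed livers, and in 1 member they lay above, where 13.3% and 11.1% of all tested models did so. The median log2 fold change was -0.31 over the 29 tested P450 enzymes and -0.07 over the 14 hydroxylases, beside 0.04 over all tested models. Leaving out single libraries moved the number of members past the threshold between 1 (without normally-fed replicate 1 or 2) and 8 (without high-intake-fed replicate 3), with 2 without high-intake-fed replicate 1 or normally-fed replicate 3 and 3 without high-intake-fed replicate 2. Over all models the same omissions moved the number of calls, 190 with all birds, to 44 and 42 without normally-fed replicates 1 and 2, 30 without normally-fed replicate 3, 85 and 161 without high-intake-fed replicates 1 and 2, and 511 without high-intake-fed replicate 3. In whole liver tissue, fewer cells of a type and less RNA per cell cannot be told apart.

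**Figure D1:**
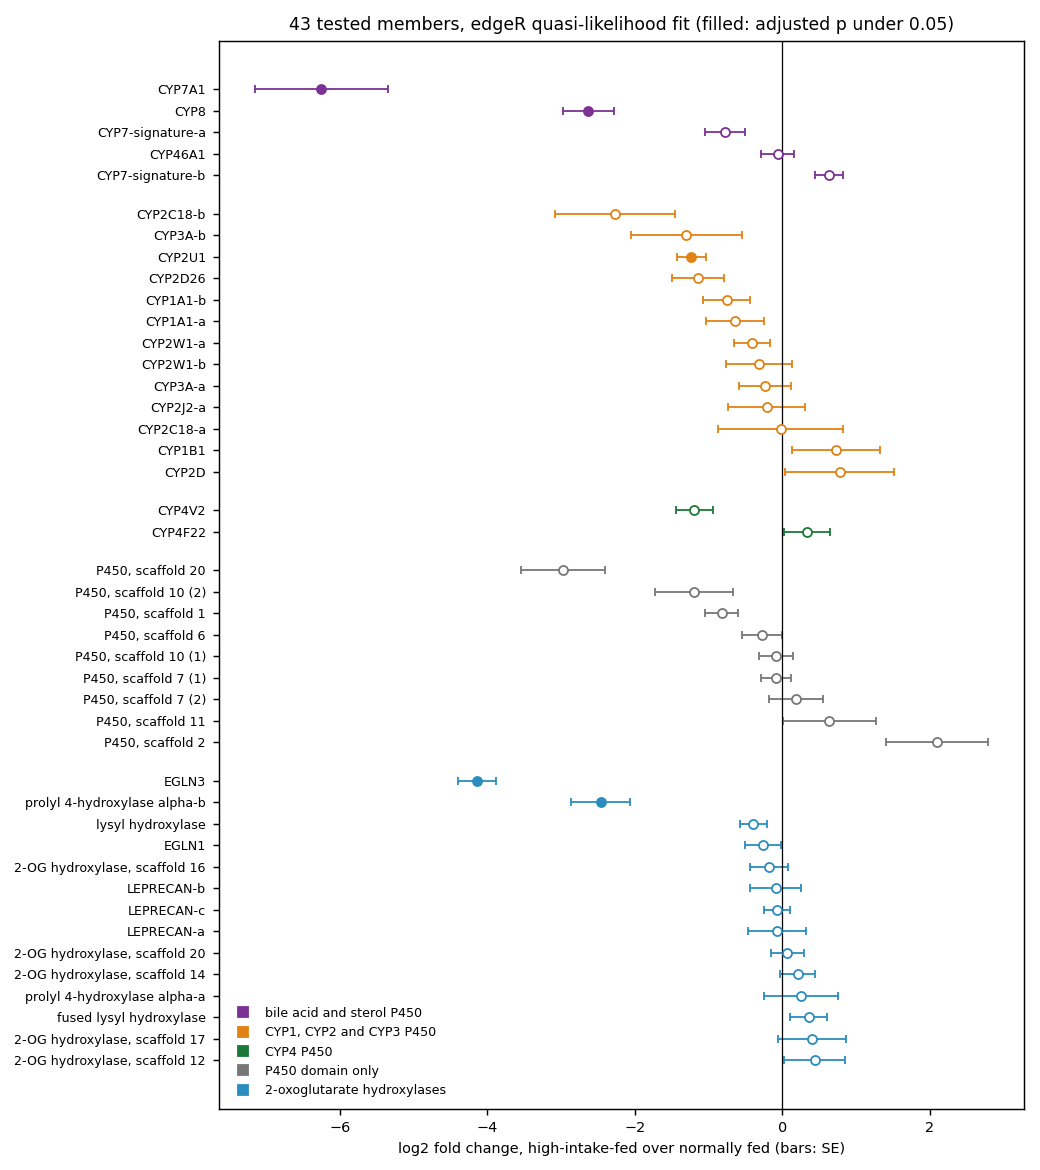
Log2 fold change of each of the 43 tested members (points, high-intake-fed over normally fed) with its standard error (bars), grouped by role; filled points passed an adjusted p under 0.05, and P450 models without a family name are given by their scaffold. All 5 filled points lie on the lower side, from CYP7A1 at -6.25 to CYP2U1 at -1.23.

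The P450 models annotated to bile acid and sterol metabolism were the group with the largest single decrease. Of 5 such models, all tested, 2 fell, 0 rose and 3 did not pass the adjusted p. At that threshold 0.829% of all tested models fell and 0.643% rose (edgeR). CYP7A1 (scaffold 2, 124969654 to 124976831, minus strand) carries the enzyme number of cholesterol 7-alpha-monooxygenase. It had 0.486, 2.47 and 0.425 CPM in high-intake-fed livers 1 to 3, against 96.2, 140.5 and 24.5 CPM in normally fed livers 1 to 3. The groups did not overlap, and the lowest normally fed liver (replicate 3) was still far above the highest high-intake-fed liver. In counts these were 7, 39 and 7 reads in high-intake-fed livers, against 1449, 2380 and 380 reads in normally fed livers. The log2 fold change was -6.25 ± 0.90 (SE; adjusted p = 0.0255, edgeR), and the exact permutation test gave p = 0.1, the smallest that 3 against 3 birds allow. Leaving out 1 bird gave an adjusted p of 0.0749 without high-intake-fed replicate 1, 0.0757 without normally-fed replicate 1 and 0.0595 without normally-fed replicate 2, with a log2 fold change between -7.56 and -5.69 over all libraries left out in turn. With limma on log2(FPKM + 1) the adjusted p was 0.0603.

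The CYP8 model (scaffold 2, 5279346 to 5280878, minus strand) has the CYP7-type signature in its description and Reactome entries for both CYP8 enzymes, sterol 12-hydroxylation and prostaglandin synthesis, so the annotation does not separate CYP8B1 from prostacyclin synthase. Its span of 1533 bases equals its coding length of 1533 bases, so the model has no intron, as the human CYP8B1 gene has none. It had 2.15, 1.71 and 1.03 CPM in high-intake-fed livers, against 9.09, 12.3 and 9.01 CPM in normally fed livers. No liver of one group came near the other group, at a mean 6.20 times higher in normally fed livers. The model fell by 2.63 on the log2 scale (SE 0.35; adjusted p = 0.0187, edgeR). Without a normally fed liver the adjusted p was 0.0709 (replicate 1), 0.0877 (replicate 2) and 0.0784 (replicate 3).

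A pair of further models with the CYP7-type signature, both annotated in Reactome to bile acid synthesis, lay on opposite sides. CYP7-signature-a (scaffold 2, 127481182 to 127506473) had 203.4, 196.8 and 190.6 CPM in high-intake-fed livers, against 243.9, 340.9 and 426.5 CPM in normally fed livers. CYP7-signature-b (scaffold 3, 16395572 to 16420816) had 66.5, 54.4 and 58.8 CPM in high-intake-fed livers, against 38.6, 43.5 and 34.3 CPM in normally fed livers. Neither overlapped between the groups and neither passed the adjusted p (edgeR log2 fold change -0.78 ± 0.27, adjusted p = 0.185, for the first and 0.63 ± 0.19, adjusted p = 0.149, for the second; SE). Cholesterol 24-hydroxylase, CYP46A1 by its enzyme number (scaffold 6, 53296357 to 53309691), which starts a minor route from cholesterol to bile acids, had 26.2, 31.5 and 22.2 CPM in high-intake-fed livers, against 26.6, 32.6 and 24.1 CPM in normally fed livers, with a log2 fold change of -0.06 ± 0.22 (SE). The bile acid models thus differed in size and sign, and the level of the most abundant of them, CYP7-signature-a at 131.8 CPM per kilobase in high-intake-fed and 225.6 in normally fed livers, exceeded that of CYP7A1 at 0.733 and 56.6.

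**Figure D2:**
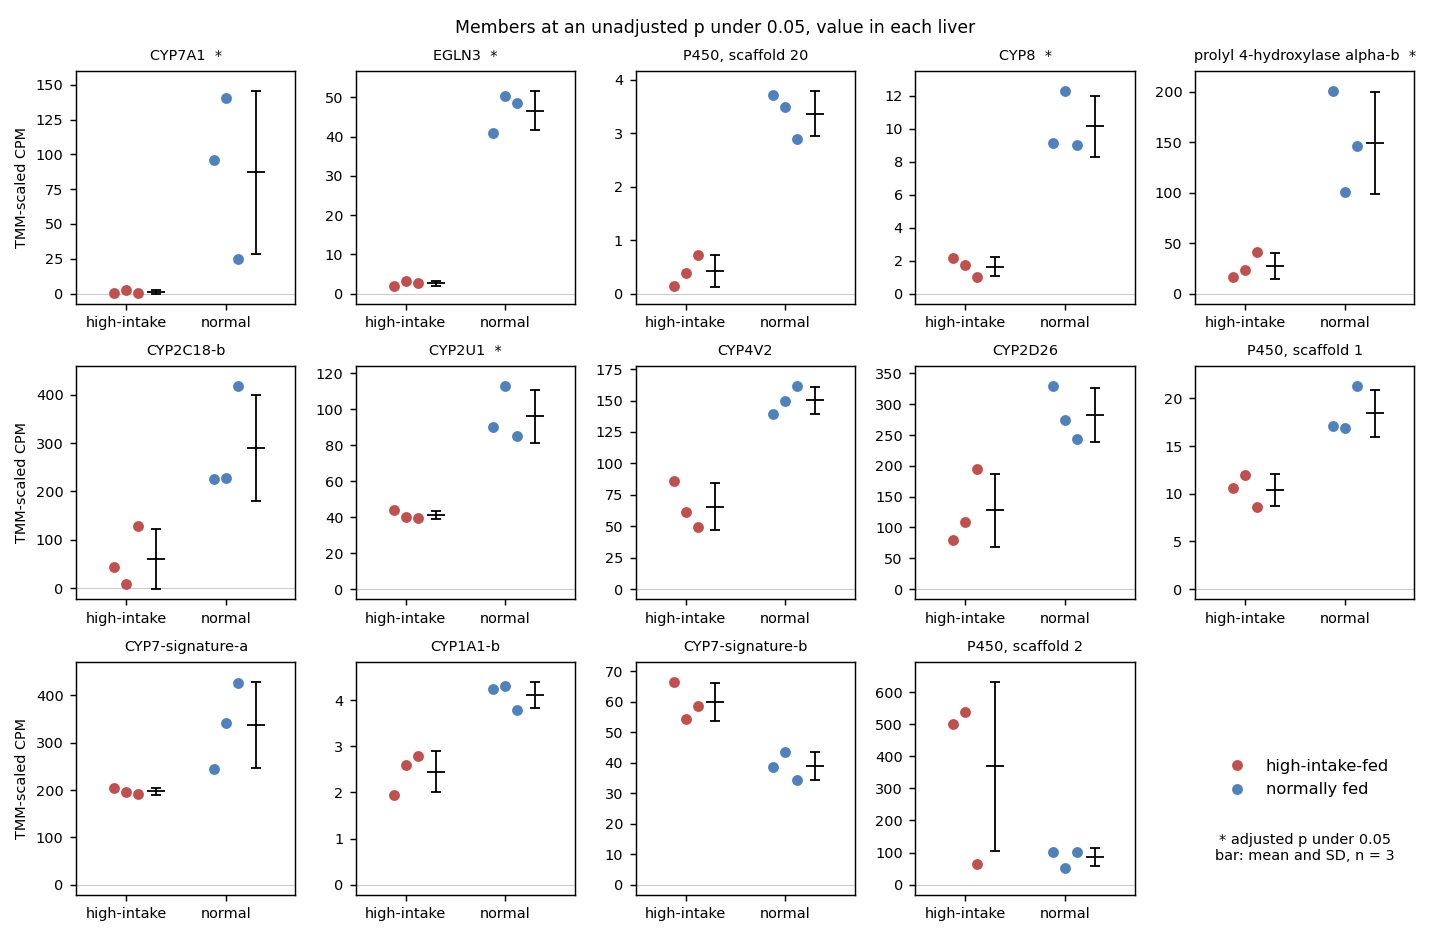
TMM-scaled CPM in each liver for the 14 members at an unadjusted p under 0.05, high-intake-fed (red) and normally fed (blue), with mean and SD of 3 livers beside the points; a star marks an adjusted p under 0.05. In 12 panels all red points lie below all blue points, in CYP7-signature-b all lie above, and in P450-b (titled P450, scaffold 2) a red point at 65.6 CPM lies among the blue ones.

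Among the families best known for foreign compounds, 16 models were members and 13 were tested. Of these 1 fell, 0 rose and 12 did not pass, beside 0.829% lower and 0.643% higher among all tested models. CYP2U1 (scaffold 5, 67475894 to 67485280, minus strand), which hydroxylates long-chain fatty acids in mammals, had 43.8, 40.0 and 39.5 CPM in high-intake-fed livers, against 90.3, 112.7 and 85.3 CPM in normally fed livers. The high-intake-fed livers were within 1.11-fold of each other and all below the normally fed ones. The log2 fold change was -1.23 ± 0.20 (SE; adjusted p = 0.032, edgeR). Only without high-intake-fed replicate 3 did the adjusted p stay under the threshold (0.0328), and it was 0.0751 when high-intake-fed replicate 1 was left out, 0.0614 for replicate 2, and 0.116, 0.175 and 0.143 for normally-fed replicates 1, 2 and 3. It was 0.087 with limma on log2(FPKM + 1).

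In 3 more of these models, all lower, the unadjusted p was under 0.05 and the groups did not overlap. Among all tested models 9.71% were lower at that p, and 13.3% lay below without overlap. CYP2D26 (scaffold 1, 173220277 to 173229042), of a family known for drug oxidation, had 80.4, 109.1 and 194.5 CPM in high-intake-fed livers, against 328.8, 274.8 and 243.1 CPM in normally fed livers. The difference was -1.14 ± 0.35 on the log2 scale (SE; adjusted p = 0.151, edgeR) and passed without high-intake-fed replicate 3 (adjusted p = 0.0315), with 0.251 to 0.377 without any other bird. CYP2C18-b (scaffold 8, 21238385 to 21244472) had 42.9, 8.62 and 128.7 CPM in high-intake-fed livers, against 225.1, 228.5 and 417.2 CPM in normally fed livers, a log2 fold change of -2.27 ± 0.81 (SE; adjusted p = 0.193, edgeR). The smaller CYP1A1 model, CYP1A1-b (scaffold 13, 13453411 to 13456741), had 1.95, 2.60 and 2.79 CPM in high-intake-fed livers, against 4.25, 4.31 and 3.80 CPM in normally fed livers.

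The CYP1 family, which the aryl hydrocarbon receptor induces, had 3 tested models and none passed. The abundant CYP1A1-a (scaffold 13, 13447814 to 13451290) had 63.6, 99.4 and 165.5 CPM in high-intake-fed livers, against 172.5, 115.5 and 222.6 CPM in normally fed livers, so that the groups overlapped (log2 fold change -0.64 ± 0.39, SE). CYP1B1 was scarce, with 27, 9 and 12 reads in high-intake-fed livers, against 9, 11 and 10 reads in normally fed livers.

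Several of the most abundant P450 enzymes varied widely between birds of the high-intake-fed group. CYP2C18-a (scaffold 8, 20159922 to 20168634), named for a human drug and fatty acid epoxidizing family, was the most abundant member at 1002 CPM per kilobase over all livers. It had 732.3, 193.7 and 3504 CPM in high-intake-fed livers, against 1294, 1541 and 1662 CPM in normally fed livers. The high-intake-fed values lay on both sides of the normally fed ones, and the log2 fold change was -0.02 ± 0.85 (SE). CYP3A-b (scaffold 18, 13934565 to 13946371), of the main drug-oxidizing family, had 317.9, 40.5 and 539.7 CPM in high-intake-fed livers, against 541.1, 685.8 and 991.6 CPM in normally fed livers. Its groups only just failed to overlap (log2 fold change -1.30 ± 0.75, SE; adjusted p = 0.408, edgeR). The CYP2D model on scaffold 3 (15296041 to 15317226) had 1147, 98.8 and 1207 CPM in high-intake-fed livers, against 503.6, 532.6 and 389.4 CPM in normally fed livers. Its coding length is 2772 bases, beside 1485 bases for CYP2C18-a, and whether it holds more than 1 gene was not tested. In each of CYP2C18-a, CYP2C18-b, CYP3A-b and CYP2D, replicate 2 was the lowest high-intake-fed liver. Over all 29 tested P450 enzymes the lowest high-intake-fed liver was replicate 1 in 6, replicate 2 in 10 and replicate 3 in 13. Among all 12914 tested models the lowest was replicate 1 in 4495, replicate 2 in 3965 and replicate 3 in 4454.

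**Figure D3:**
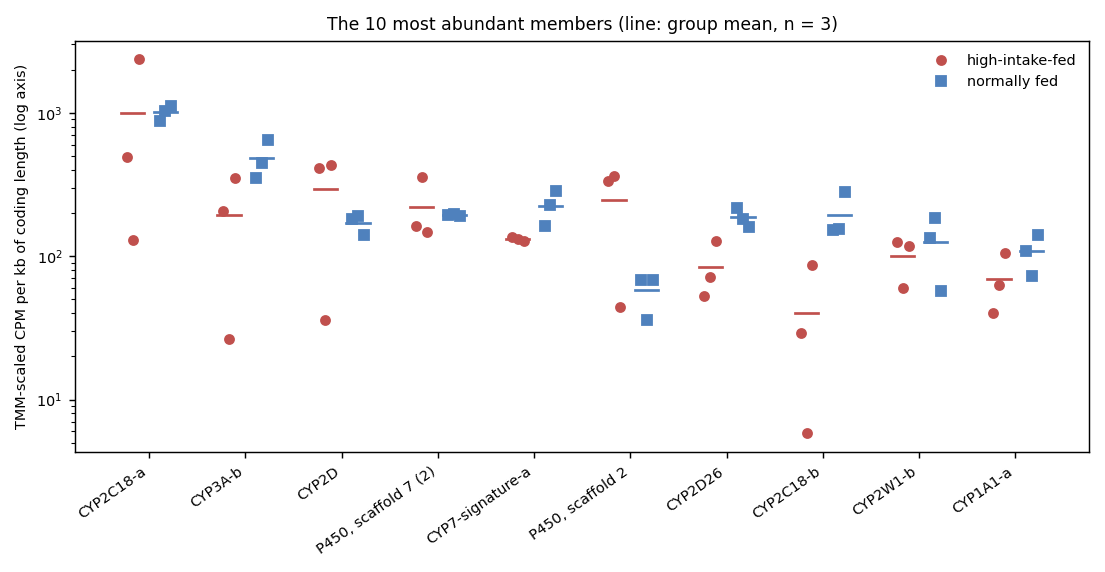
Level per kilobase of coding length (log axis) of the 10 most abundant tested members, in order of their mean over all livers, with each high-intake-fed (red circle) and normally fed (blue square) liver shown and the group mean as a line. CYP2C18-a stands first, and the red circles spread more widely than the blue squares for CYP2C18-a, CYP3A-b, CYP2D and CYP2C18-b.

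P450-b, a model on scaffold 2 with P450 domains alone (26822252 to 26831623, minus strand) showed the largest positive fold change of the 43 tested members. It had 501.4, 538.1 and 65.6 CPM in high-intake-fed livers, against 102.1, 53.3 and 102.6 CPM in normally fed livers. High-intake-fed livers 1 and 2 were above every normally fed liver, and liver 3 was within their range. The log2 fold change of 2.10 ± 0.69 (SE) had an adjusted p of 0.169 (edgeR). Without high-intake-fed replicate 3 it was 2.60 with an adjusted p of 0.0199, against 0.294 to 0.437 without any other bird (edgeR). The adjusted p was 0.00947 with DESeq2, 0.0483 with the exact test and 0.45 with limma on log2(FPKM + 1). P450-b passed in 3 of 16 alternatives. P450-e (scaffold 7, 30540303 to 30542846), also without a family name, had 251.9, 554.9 and 229.1 CPM in high-intake-fed livers, against 302.6, 306.2 and 297.0 CPM in normally fed livers, so that only high-intake-fed liver 2 stood above the rest.

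CYP2W1-b (scaffold 18, 12045394 to 12055544) completed the 10 most abundant members, with 191.4, 90.8 and 177.3 CPM in high-intake-fed livers, against 202.8, 280.0 and 86.7 CPM in normally fed livers, so that the groups overlapped. Summed over the 47 P450 models, levels per kilobase were 2366, 1581 and 4208 CPM in high-intake-fed livers, against 2930, 3286 and 3538 CPM in normally fed livers. The share of CYP2C18-a in that sum was 20.8% and 56.1% in high-intake-fed livers 1 and 3 and 29.7% to 31.6% in normally fed livers, while in high-intake-fed liver 2 P450-b came first with 22.8%.

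The spread within the high-intake-fed group was larger than within the normally fed group for 22 of the 29 tested P450 enzymes (75.9%), and for 72.4% of all tested models. Its median SD of log2(CPM + 1) was 0.40 in high-intake-fed and 0.23 in normally fed livers for the P450 enzymes, and 0.36 and 0.22 for all tested models. CYP2C18-a varied 18.1-fold, CYP2C18-b 14.9-fold, CYP3A-b 13.3-fold and CYP2D 12.2-fold between the highest and the lowest high-intake-fed liver, and 1.28-fold, 1.85-fold, 1.83-fold and 1.37-fold between normally fed livers. CYP7A1 was the tested member with the largest spread among normally fed livers, at an SD of 1.30 on this scale, beside 0.73 among high-intake-fed livers. The high-intake-fed values of CYP7A1, between 0.425 and 2.47 CPM, lie near the added 1, which narrows their spread on this scale. Between the highest and the lowest liver CYP7A1 varied 5.82-fold among high-intake-fed and 5.74-fold among normally fed livers.

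**Figure D4:**
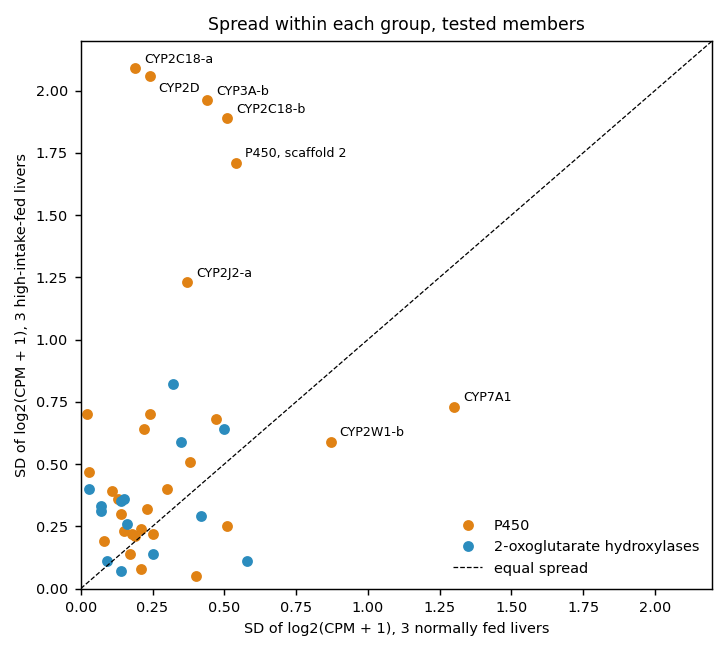
SD of log2(CPM + 1) over 3 high-intake-fed livers (vertical axis) and over 3 normally fed livers (horizontal axis) for each tested member, P450 enzymes in orange and 2-oxoglutarate dependent hydroxylases in blue; the dashed line marks equal spread. CYP2C18-a, CYP2D, CYP3A-b and CYP2C18-b stand highest above the line. CYP7A1, whose high-intake-fed values lie near the added 1, lies below it.

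The CYP4 family, whose enzymes oxidize fatty acids at the end of the chain, had 2 models. CYP4V2 (scaffold 5, 58530110 to 58543826) had 85.8, 61.6 and 49.6 CPM in high-intake-fed livers, against 139.0, 149.9 and 161.2 CPM in normally fed livers, without overlap (log2 fold change -1.19 ± 0.25, SE; adjusted p = 0.0666, edgeR). It passed the threshold with DESeq2 (adjusted p = 0.00313) and in 5 of 16 alternatives in all. With a bird left out it never passed (adjusted p 0.0553 to 0.266, edgeR). CYP4F22 (scaffold 37, 982474 to 986388), which serves skin ceramide synthesis in humans, had 28.8, 21.2 and 43.7 CPM in high-intake-fed livers, against 31.7, 24.3 and 18.4 CPM in normally fed livers, and the groups overlapped.

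Of 15 models with P450 domains alone, 9 were tested and none passed the adjusted p with edgeR. Of the 9, 2 were lower and 1 higher at an unadjusted p under 0.05, beside 9.71% lower and 8.67% higher among all tested models. P450-l (scaffold 20, 10773437 to 10777941, minus strand) had 2, 6 and 12 reads in high-intake-fed livers, against 56, 59 and 45 reads in normally fed livers. This was 0.139, 0.381 and 0.729 CPM, against 3.72, 3.48 and 2.90 CPM, a log2 fold change of -2.97 ± 0.57 (SE) just outside the threshold (adjusted p = 0.0527, edgeR; 8.4e-05 with DESeq2). Its adjusted p was 0.0305 without high-intake-fed replicate 3, 0.0833 to 0.185 without any other bird, and 0.133 with limma on log2(FPKM + 1). P450-a (scaffold 1, 156557666 to 156707443) had 10.6, 11.99 and 8.63 CPM in high-intake-fed livers, against 17.1, 16.9 and 21.3 CPM in normally fed livers, with no overlap and an adjusted p of 0.117 (edgeR).

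The steroid hormone and retinoid P450 enzymes had few reads, and none passed the filter on low counts. The steroid hormone group held CYP11A1 by its enzyme number, which cleaves the cholesterol side chain, CYP17A1, aromatase and a pair of CYP11B2 models. Reads were 1, 0 and 2 for CYP11A1 in high-intake-fed livers, against 3, 4 and 3 in normally fed livers, and 3, 1 and 3 for aromatase in high-intake-fed livers, against 12, 1 and 0 in normally fed livers. The retinoid group held CYP26A1, CYP26B1 and CYP26C1, which degrade retinoic acid, and CYP27C1, a retinoid desaturase in humans. CYP26A1 had 6, 5 and 2 reads in high-intake-fed livers, against 20, 27 and 2 reads in normally fed livers, so that high-intake-fed livers and normally fed liver 3 could not be separated. The 18 untested members reached at most 62 reads over all libraries, and 8 of them had fewer than 15.

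Some P450 models lie next to each other, and neighbours differed in level to varying degrees. Neighbouring members less than 100 kb apart formed 10 pairs, and 5 scarce models follow each other on scaffold 11. The 4 pairs among those 5 and the pair of CYP26C1 and CYP26A1 differed between 1.12-fold and 3.24-fold in level per kilobase. P450-f on scaffold 10 stood 59-fold above P450-g at 6.85 kb. CYP1A1-a and CYP1A1-b are 2.12 kb apart, and CYP1A1-a had a 41.4-fold higher level per kilobase over all livers. CYP3A-b stood 15.1-fold above CYP3A-a at 25.8 kb, and CYP2J2-a 136-fold above CYP2J2-b at 2.44 kb. CYP2W1-b stood 12.4-fold above CYP2W1-a at 2.52 kb, a ratio that includes their coding lengths of 1515 and 2787 bases. Reads of such close relatives may be shared or lost in counting, so the split between them is uncertain. No member overlapped another gene model.

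Of the 14 members with a 2-oxoglutarate dependent hydroxylase domain, 2 fell, 0 rose and 12 did not pass. The share of all tested models at this threshold was 0.829% lower and 0.643% higher (edgeR). EGLN3 (scaffold 6, 20489968 to 20494353), an oxygen-dependent prolyl hydroxylase that marks hypoxia-inducible factor for degradation and is itself a target of that factor in mammals, had 2.01, 3.30 and 2.61 CPM in high-intake-fed livers, against 41.0, 50.4 and 48.6 CPM in normally fed livers (log2 fold change -4.14 ± 0.26, SE; adjusted p = 0.00089, edgeR). It kept an adjusted p under 0.05 in all 16 alternatives, whereas EGLN1 had 20.4, 18.8 and 12.4 CPM in high-intake-fed livers, against 18.1, 21.3 and 22.3 CPM in normally fed livers.

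A model with the enzyme number of procollagen prolyl 4-hydroxylase, prolyl 4-hydroxylase alpha-b (scaffold 8, 24561697 to 24591139, plus strand), belongs to the enzyme that stabilizes the collagen triple helix. It had 16.7, 23.3 and 41.2 CPM in high-intake-fed livers, against 201.0, 100.6 and 146.6 CPM in normally fed livers. All high-intake-fed livers lay below the lowest normally fed liver (log2 fold change -2.46 ± 0.40, SE; adjusted p = 0.032, edgeR). The call held without high-intake-fed replicate 3 (0.02), while the adjusted p was 0.0772 when high-intake-fed replicate 1 was left out, 0.07 for replicate 2, and 0.103, 0.0638 and 0.13 for normally-fed replicates 1, 2 and 3. With library size as the only scaling it was 0.0544. The summed stellate and fibroblast markers, given above, were also lower in high-intake-fed livers. Of that sum ACTA2 was lower without overlap, while DES overlapped between the groups. The part of these markers in this result was not tested. The second model of that enzyme had 12 to 20 reads in high-intake-fed livers, against 9 to 21 reads in normally fed livers.

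The other collagen-modifying members moved little. The lysyl hydroxylase of scaffold 11 (1371086 to 1406203) had 45.0, 45.2 and 39.2 CPM in high-intake-fed livers, against 53.8, 60.5 and 55.2 CPM in normally fed livers, without overlap and with an adjusted p of 0.298 (edgeR). A second lysyl hydroxylase is part of a 6879-base model on scaffold 21 that also holds domains of a mitochondrial GTPase and a receptor, so its counts (log2 fold change 0.36 ± 0.25, SE) cannot be assigned to 1 gene. The 3 leprecan models, of the prolyl 3-hydroxylase family, had log2 fold changes of -0.07, -0.09 and -0.07, and the 5 hydroxylases without a name between -0.18 and 0.44.

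P450 enzymes work with electron donors, heme, receptors and conjugating enzymes, and 43 symbols of these pathways out of 68 listed could be matched to a model by description or enzyme number. None of the 41 tested models passed the adjusted p with edgeR. At an unadjusted p under 0.05, 8 were higher and 5 lower, beside 8.67% higher and 9.71% lower among all tested models. DESeq2, run on all 43 matched models, gave 3 higher and 3 lower at an adjusted p under 0.05. Of all models with a DESeq2 p value 2.41% were higher and 2.63% lower, a total that includes models without an adjusted p.

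The 4 electron donors all had positive fold changes, with a median of 0.73 on the log2 scale beside 0.04 over all tested models, and in 3 of them all high-intake-fed livers lay above all normally fed livers, beside 11.1% of all tested models. POR, the NADPH reductase that serves all microsomal P450 enzymes, had 214.7, 135.8 and 186.7 CPM in high-intake-fed livers, against 92.2, 104.2 and 111.4 CPM in normally fed livers (log2 fold change 0.80 ± 0.24, SE; adjusted p = 0.145, edgeR). CYB5B, a mitochondrial cytochrome b5, had 37.4, 43.8 and 29.5 CPM in high-intake-fed livers, against 22.8, 25.9 and 21.8 CPM in normally fed livers. FDXR, the reductase of the mitochondrial P450 chain, had 12.6, 16.2 and 15.01 CPM in high-intake-fed livers, against 7.43, 11.1 and 11.1 CPM in normally fed livers.

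In heme synthesis and breakdown, 10 models were tested with a median log2 fold change of 0.20. The model with the enzyme number of 5-aminolevulinate synthase, which starts the pathway, was listed as ALAS1, although the number does not separate the liver form ALAS1 from the erythroid form ALAS2. It had 73.1, 198.4 and 69.6 CPM in high-intake-fed livers, against 32.7, 34.7 and 26.2 CPM in normally fed livers (log2 fold change 1.87 ± 0.42, SE; adjusted p = 0.0786, edgeR, with 0.0444 without high-intake-fed replicate 3 and 0.0522 to 0.27 without any other bird). ALAD, the next enzyme, had 40.3, 79.0 and 59.1 CPM in high-intake-fed livers, against 27.02, 33.1 and 23.95 CPM in normally fed livers, and PPOX had 11.3, 10.5 and 12.5 CPM, against 4.32, 7.55 and 7.34 CPM. In all 3 every high-intake-fed liver lay above every normally fed liver, while heme oxygenase 1, which breaks heme down, had a log2 fold change of 0.03 ± 0.29 (SE). Globin mRNA, given above, was also higher in high-intake-fed livers, and its part in the values of heme genes was not tested.

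Of the bile acid genes beside P450, 5 were tested, with a median log2 fold change of -0.99, and in 4 of them all high-intake-fed livers lay below all normally fed livers, beside 13.3% of all tested models. The model with the enzyme number of bile acid CoA ligase (SLC27A5) had 77.2, 73.4 and 126.8 CPM in high-intake-fed livers, against 189.8, 194.1 and 192.3 CPM in normally fed livers (log2 fold change -1.05 ± 0.27, SE; adjusted p = 0.101, edgeR, with 0.0215 without high-intake-fed replicate 3 and 0.163 to 0.321 without any other bird). SLC51A, the alpha subunit of the basolateral bile acid exporter, had 53.1, 36.7 and 105.3 CPM in high-intake-fed livers, against 193.2, 221.9 and 151.6 CPM in normally fed livers (log2 fold change -1.54 ± 0.39, SE; adjusted p = 0.103, edgeR, with 0.0224 without high-intake-fed replicate 3 and 0.144 to 0.316 without any other bird). ABCB11, the bile salt export pump, had 333.6, 439.8 and 554.1 CPM in high-intake-fed livers, against 699.4, 679.5 and 901.1 CPM in normally fed livers (adjusted p = 0.215, edgeR). DESeq2 placed 2 models of this list below the adjusted p threshold, both lower.

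Among 11 tested receptors and factors the median log2 fold change was 0.16. Of 2 models matched to AHR, the aryl hydrocarbon receptor, the one with more reads was taken. It had 148.9, 63.3 and 63.7 CPM in high-intake-fed livers, against 213.8, 302.8 and 357.7 CPM in normally fed livers (log2 fold change -1.66 ± 0.40, SE; adjusted p = 0.0905, edgeR, with 0.0465 without high-intake-fed replicate 1 and 0.104 to 0.3 without any other bird). FGFR4, through which the ileal hormone FGF19 acts on CYP7A1 in mammals, had 70.0, 158.3 and 129.1 CPM in high-intake-fed livers, against 81.6, 63.9 and 44.4 CPM in normally fed livers. The model of the klotho family, which holds the co-receptor of FGF19, had 0.834, 2.66 and 0.425 CPM in high-intake-fed livers, against 4.98, 2.95 and 2.64 CPM in normally fed livers. The bile acid receptor NR1H4 had 48.5, 9.89 and 58.5 CPM in high-intake-fed livers, against 71.0, 78.4 and 89.0 CPM in normally fed livers.

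The list of conjugating enzymes also held the epoxide hydrolases EPHX1 and EPHX2, and its 11 tested models had a median log2 fold change of -0.23. EPHX2, the soluble epoxide hydrolase that acts on epoxides made by P450 enzymes, had 160.6, 197.1 and 210.7 CPM in high-intake-fed livers, against 104.8, 141.1 and 102.3 CPM in normally fed livers. GSTZ1 had 51.0, 25.8 and 35.8 CPM in high-intake-fed livers, against 53.4, 74.4 and 54.2 CPM in normally fed livers. The most abundant model of the glucuronosyltransferase family, listed as UGT1A1 from its family alone, had 312.6, 436.8 and 374.3 CPM in high-intake-fed livers, against 491.0, 598.2 and 567.2 CPM in normally fed livers, without overlap (log2 fold change -0.56 ± 0.26, SE; adjusted p = 0.298, edgeR).

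**Figure D5:**
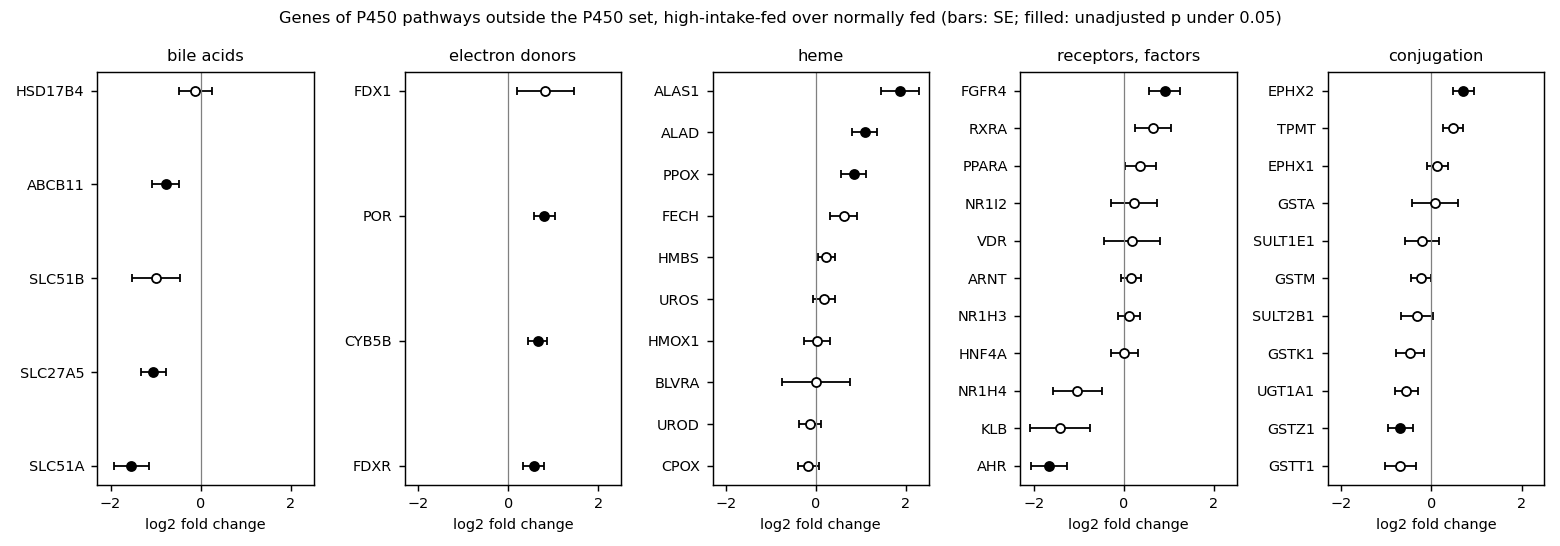
Log2 fold change (points, high-intake-fed over normally fed) and standard error (bars) of the 41 tested pathway genes outside the P450 set, in 5 panels; filled points had an unadjusted p under 0.05 and none passed the adjusted p. All electron donors lie right of 0, and all bile acid genes lie left of it.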

How the data were processed

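Liver RNA was cleared of ribosomal RNA with probes, and the authors sorted out ribosomal reads with Bowtie2 and placed the rest on the goose genome with HISAT2. They deposited raw counts per gene model and FPKM, in which a count is scaled by length and depth. FastQC and BWA stand in the submitters' processing notes. StringTie is named for the noncoding RNAs and HTSeq beside the Gene Ontology analysis, and neither is tied to these counts. The sources used here name no strand setting, genome build or annotation version. Coordinates are those of the deposited models, on numbered scaffolds that the locus field writes as chromosomes. The coding length of every model is a multiple of 3. In the descriptions the letters chr inside words were replaced, so that cytochrome was misspelt in all 47 P450 models, and 22 of them matched by another entry. Albumin is listed at an FPKM of 0, so FPKM served only as an alternative.

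The quasi-likelihood test of edgeR 4.0.16 was run in R 4.3.3 on the counts of all models with TMM scaling and filterByExpr (count 10, total 15), 3 against 3 birds, without covariates. The procedure was tested on simulated data, where it recovered 8 of 100 genes changed 2-fold and 81 of 100 changed 4-fold, with 8 false calls. The changed genes were drawn from those with a mean over 100 counts, so scarcer models were not covered. Both groups were simulated with the same spread for a gene. In the data the high-intake-fed SD was larger in 72.4% of tested models, and unequal spread was not simulated. A model that did not pass may therefore still differ by 2-fold or more. Alternatives were DESeq2 1.42.0, limma 3.58.1 on log2(CPM + 1) and log2(FPKM + 1), the exact test, other scalings and filters, a replicate block and each library left out. The members, lists and tests were chosen with earlier results of these data known. Named are CYP7A1, CYP2U1, members at an unadjusted p under 0.05, the 10 most abundant per kilobase, those of bile acid, sterol, steroid, retinoid, CYP1 or CYP4 metabolism, hydroxylases with a role, and up to 3 genes of each pathway list by p; NR1H4 and heme oxygenase 1 were added after their values were seen. Letters after a hyphen number models of 1 name by position. Pathway genes and markers were matched by description or enzyme number. Of the conjugating enzymes, 1 is not reported here and was left out of the counts of its list.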

Additional observations from a re-analysis of the deposited data

How the results depend on the processing

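The number of members past the adjusted p, 5 with edgeR, was 9 with DESeq2 (run on all 61), 8 with the exact test and 3 with limma on log2(FPKM + 1). It was 10 at an unadjusted p under 0.05 with a fold change over 2, 1 among the members whose description names cytochrome P450, and 1 to 8 with each library left out in turn. Over all models the count, 190 with edgeR, was 944 with DESeq2, 809 with the exact test, 43 with limma on log2(FPKM + 1), 335 without a filter and 30 to 511 with a library left out. With the replicate block the counts were 2 and 61, but same-numbered birds did not deviate together (correlations -0.161, 0.031 and -0.183), so the numbers do not pair them. The sign turned in the named members given next, whose log2 fold changes lay between -0.31 and 0.26. Prolyl 4-hydroxylase alpha-a had -0.08 with limma on log2(FPKM + 1), and CYP2C18-a had 0.12 with library size only. With a library left out the log2 fold change lay between -1.69 and 0.50 for CYP2C18-a, -0.20 and 0.10 for CYP46A1, -0.33 and 0.42 for P450-e, -0.63 and 0.11 for CYP2W1-b, and -0.43 and 0.22, -0.26 and 0.21, and -0.14 and 0.03 for the leprecan models a, b and c. The cause of these changes was not tested. The filter on low counts kept 18 members with few reads out of the edgeR test, and without it 6 of 61 members passed. None of these 6 was among the 18. The member gained was P450-l, with an adjusted p of 0.0527 with the filter and 0.0272 without it (edgeR).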
